A study of Mus musculus with 12 samples.

Results

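B cell, T cell and follicular genes were read in the inguinal white adipose tissue (iWAT) of 12 male C57BL/6J mice. The genes were 37 named members, 14 of B cells and their follicles and 23 of T cells, found by symbol among the 54134 genes of the count table, and all 37 passed the filter on low counts that left 15585 genes for testing. All mice received an adeno-associated virus serotype 8 (AAV) through the tail vein at 8 weeks of age, carrying either green fluorescent protein (AAV-GFP, n = 6) or mouse Notum (AAV-Notum, n = 6), a secreted enzyme that inactivates Wnt proteins. The thyroxine binding globulin promoter drives expression in the liver, so iWAT was not the tissue targeted, and the controls carry a vector and a transgene too. The mice ate chow for 4 weeks and were fasted for 4 h before iWAT was collected at 12 weeks of age. Mice are named below by their group and their number in the labels.

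White fat of the inguinal depot surrounds a lymph node, an organ in which B cells gather in follicles and T cells fill the zones between them. Lymphocytes enter the node from blood through high endothelial venules and are guided by chemokines, CXCL13 drawing cells with the receptor CXCR5 into follicles and CCL19 and CCL21 drawing cells with CCR7 into the T cell zone. B cells signal through CD79A and CD79B and T cells through the CD3 chains, and each lineage has its own kinases, co-receptors and transcription factors. Whether the node was left in the dissected fat is not given in the sources used here. In whole tissue, fewer cells of a type and less RNA per cell cannot be told apart.

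Each library held 14711113 to 21618860 counted reads. RNA integrity numbers ran from 5.7 in AAV-GFP-2011 to 7.6 in AAV-GFP-2022, and RNA of AAV-GFP-2012 was isolated 22 days after collection against 2 days for the other mice. The adipocyte identity of the tissue showed in every mouse: adiponectin (Adipoq), a hormone of fat cells, was at 2194 to 5222 CPM. CPM are the reads of a gene per 1000000 reads of the library size after scaling by the trimmed mean of M values (TMM). The transgene's own gene does not check the labels in this tissue, as Notum was at 0.06 to 0.99 CPM in 10 mice and at 29.3 and 26.6 CPM in AAV-Notum-2032 and AAV-Notum-2041 (log2 fold change 4.64, edgeR adjusted p = 0.168). Log2 CPM adds a prior count of 2.

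AAV-GFP-2011 and AAV-GFP-2014 held almost none of the 37 genes, and AAV-GFP-2012 held the B cell genes at 31.7% of their 12-mouse median level but few of the T cell genes. The 37 genes took 0.00455% and 0.00246% of all reads in AAV-GFP-2011 and AAV-GFP-2014, 0.0526% in AAV-GFP-2012, and 0.0802% to 0.444% in the remaining 9 mice. These mice stand apart on the genes that are described, so the group comparison is also given without them. AAV-GFP-2014, with an RNA integrity number of 6.8 and 2 days to isolation, was within the values of the other mice on both, and the part that these have in the levels of the 37 genes was not tested. The map of log2 CPM by gene and mouse shows the 3 dark columns, 2 of them dark throughout and 1 of them dark only below the line that separates the lists.

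**Figure D1:**
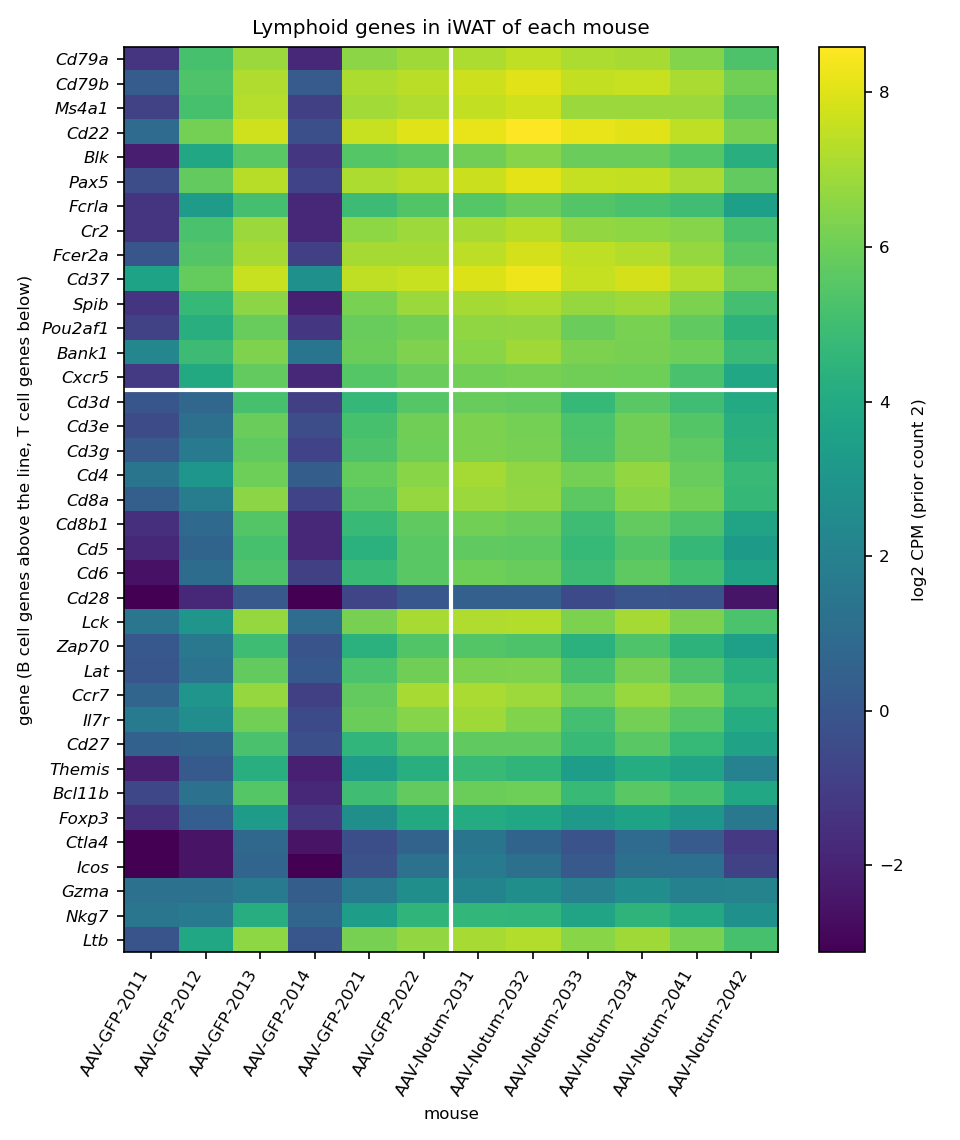
Colours give log2 CPM (prior count 2) of the 37 genes (rows; 14 B cell genes above the line, 23 T cell genes below) in the 12 mice (columns; 6 AAV-GFP left of the line, 6 AAV-Notum right). AAV-GFP-2011 and AAV-GFP-2014 are low for both lists, and AAV-GFP-2012 is low mainly for the T cell genes.

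The promoters of members with a sequence in RefSeq are described first. RefSeq (GRCm38.p6) gave 34 promoters, from 250 bases before to 50 bases after the start, for 27 of the 37 genes, 10 of the B cell list and 17 of the T cell list. Each was searched on both strands for 6 motifs known from lymphocyte genes, and the share of all 32851 promoters that hold the motif is given for comparison. The octamer of Oct factors, ATTTGCAT, was in 0 of the 34 and in 1.74% of all. The EBF1 motif of B cells, CCCNNGGG, was in 6 (Bank1, Bcl11b, Cd22, Cd27, Spib and Zap70) and in 13.7% of all. These were 3 of 12 B cell and 3 of 22 T cell promoters. The Spi-B and PU.1 motif GAGGAAGT was in 2 (Cd37 and Cd5) and in 3.20% of all. The TCF and LEF motif CTTTGAT was in 2 (Cd3d and Ctla4) and in 3.73% of all, the RUNX motif TGTGGTT in 3 (Gzma, Il7r and Lck) and in 5.27%, and the decamer of NF-kB, printed below in the capitals of Ltb as read on the opposite strand, in 1 (Ltb) and in 0.155%. A match of letters is a description and not a binding site.

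A few of these promoters are printed 5′ to 3′ on the strand of the gene, one for each of 4 motifs, with the matched letters in capitals. Spib encodes a transcription factor of B cells (chr7:44532022-44532321, minus strand), and its capitals hold 2 overlapping EBF1 matches that begin 65 and 64 bases before the start. Cd37 encodes a tetraspanin of leukocytes (chr7:45238790-45239089, minus strand), with the Spi-B and PU.1 match on the opposite strand 25 bases before the start. Cd3d encodes the CD3 delta chain (chr9:44981536-44981835, plus strand), with the TCF and LEF match on the opposite strand 55 bases before the start. Ltb encodes lymphotoxin beta (chr17:35194257-35194556, plus strand), with the NF-kB match on the opposite strand 87 bases before the start.
Spib: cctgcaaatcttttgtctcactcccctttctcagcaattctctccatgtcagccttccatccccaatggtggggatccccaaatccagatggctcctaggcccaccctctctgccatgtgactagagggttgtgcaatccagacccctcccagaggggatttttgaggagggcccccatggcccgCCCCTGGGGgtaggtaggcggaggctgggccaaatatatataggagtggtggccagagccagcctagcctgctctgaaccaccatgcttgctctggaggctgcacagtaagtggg
Cd37: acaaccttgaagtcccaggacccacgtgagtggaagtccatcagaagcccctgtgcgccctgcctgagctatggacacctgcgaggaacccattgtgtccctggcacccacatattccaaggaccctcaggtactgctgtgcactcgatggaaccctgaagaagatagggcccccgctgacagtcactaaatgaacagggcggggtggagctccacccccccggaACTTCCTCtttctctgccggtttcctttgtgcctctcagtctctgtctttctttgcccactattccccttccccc
Cd3d: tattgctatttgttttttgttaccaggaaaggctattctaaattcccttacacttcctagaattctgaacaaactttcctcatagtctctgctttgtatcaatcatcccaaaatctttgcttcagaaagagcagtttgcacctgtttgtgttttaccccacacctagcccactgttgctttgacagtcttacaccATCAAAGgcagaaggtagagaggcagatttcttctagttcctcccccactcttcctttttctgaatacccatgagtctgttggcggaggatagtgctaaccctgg
Ltb: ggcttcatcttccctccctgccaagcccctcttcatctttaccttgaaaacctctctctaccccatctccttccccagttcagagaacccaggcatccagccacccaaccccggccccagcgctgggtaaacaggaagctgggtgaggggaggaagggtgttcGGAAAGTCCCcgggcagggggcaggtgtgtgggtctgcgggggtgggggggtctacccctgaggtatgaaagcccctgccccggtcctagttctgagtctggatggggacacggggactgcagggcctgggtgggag

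The B cell receptor and co-receptor genes were high in 9 mice and near 0 in AAV-GFP-2011 and AAV-GFP-2014. Cd79a (chr7:24897381-24902197), a signalling chain of the B cell receptor, was at 0.280 and 0.179 CPM in AAV-GFP-2011 and AAV-GFP-2014, from 5 and 3 reads. It was at 36.3 CPM in AAV-GFP-2012 and at 40.1 to 178 CPM in the other 9 mice. Its partner Cd79b (chr11:106311341-106314762) was at 1.12 and 1.07 CPM in the same pair of mice, 40.4 CPM in AAV-GFP-2012 and 67.5 to 267 CPM in the others. Ms4a1 (chr19:11249675-11266241), which encodes CD20, was at 0.448 and 0.417 CPM, then 35.8 CPM, then 49.8 to 214 CPM. Both low mice lay below each of the other mice for all 3 genes, by more than an order of magnitude. Cd22, an inhibitory co-receptor, was at 1.85 and 0.715 CPM in the low pair and at 73.3 to 385 CPM in the 9 mice. Cr2, the complement receptor CD21 of B cells and follicular dendritic cells, was at 0.280 and 0.179 CPM against 36.97 to 163 CPM, and Fcer2a, the IgE receptor CD23 of follicular B cells, at 0.897 and 0.417 CPM against 47.5 to 226 CPM. AAV-GFP-2012 was inside the range of the 9 mice for Cr2, at 37.3 CPM, and just below it for Fcer2a, at 44.2 CPM.

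The B cell transcription factors and signalling genes had the same low pair of mice. Pax5 (chr4:44524757-44710487), the factor that maintains B cell identity, was at 0.672 and 0.477 CPM in AAV-GFP-2011 and AAV-GFP-2014, 54.3 CPM in AAV-GFP-2012 and 55.3 to 279 CPM in the 9 others. Spib was at 0.280 and 0.119 CPM in the low pair against 33.7 to 143 CPM, and Pou2af1, a coactivator of Oct factors in B cells, at 0.448 and 0.298 CPM against 21.8 to 103 CPM. Blk, a kinase of the B cell receptor, was at 0.112 and 0.298 CPM against 19.1 to 87.3 CPM, and Fcrla, an Fc receptor-like protein inside B cells, at 0.280 and 0.179 CPM against 11.1 to 60.5 CPM. Cxcr5 (chr9:44511787-44561877), the receptor that brings cells into follicles, was at 0.336 and 0.179 CPM against 14.4 to 73.5 CPM. These genes too left a wide gap between the low pair and every other mouse, and AAV-GFP-2012 was inside the range of the 9 mice for Cxcr5, at 15.7 CPM.

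The reads of the B cell list that were left in the low pair came mostly from 2 of its genes. Cd37 held 226 and 113 reads and Bank1, a scaffold protein of B cell signalling, held 85 and 43 reads in AAV-GFP-2011 and AAV-GFP-2014, or 71.3% and 67.2% of the list's 436 and 232 reads. The 12 other B cell genes held 125 and 76 reads together, with 2 to 33 and 2 to 18 reads each. Against its median over the 12 mice, Cd37 stood at 6.92% and 3.68% and Bank1 at 6.93% and 3.73%, where every other gene of the list stood between 0.141% and 0.894%.

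The T cell genes were also near 0 in the same pair, and they were low in AAV-GFP-2012 as well. The CD3 chains carry the signal of the T cell receptor, and their 3 genes lie side by side on chromosome 9. Cd3e (chr9:44998740-45009627) was at 0.616 and 0.656 CPM in AAV-GFP-2011 and AAV-GFP-2014, 2.20 CPM in AAV-GFP-2012 and 19.4 to 76.3 CPM in the 9 others. Cd3d was at 0.897, 0.417 and 1.55 CPM in those 3 mice against 16.3 to 58.5 CPM, and Cd3g at 1.01, 0.477 and 3.16 CPM against 21.3 to 76.6 CPM. For each chain the 3 mice lay below the lowest of the 9, and AAV-GFP-2012 was the highest of the 3. The co-receptors did likewise. Cd4, of helper T cells, was at 2.58, 1.13 and 8.04 CPM against 27.3 to 130.4 CPM. Cd8a, of cytotoxic T cells, was at 1.23, 0.477 and 3.39 CPM against 25.2 to 112 CPM, and its partner Cd8b1 at 0.224, 0.179 and 1.73 CPM against 13.0 to 68.9 CPM.

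The kinases and adaptors of the T cell receptor followed the CD3 chains. Lck, the kinase that starts the signal, was at 2.69 and 1.97 CPM in AAV-GFP-2011 and AAV-GFP-2014, 7.80 CPM in AAV-GFP-2012 and 38.1 to 152 CPM in the 9 others. Zap70, the kinase that follows, was at 0.953, 0.834 and 2.80 CPM against 11.3 to 43.6 CPM, and the adaptor Lat at 0.897, 0.954 and 2.38 CPM against 19.7 to 78.9 CPM. Themis, a signalling protein named for thymocytes, was at 0.112, 0.119 and 1.01 CPM against 4.01 to 27.2 CPM. In all 4 the 3 AAV-GFP mice lay below the other 9. Bcl11b, a transcription factor of the T cell lineage, was at 0.560, 0.179 and 2.32 CPM against 15.02 to 64.8 CPM. The surface modulators Cd5 and Cd6 were at 0.168, 0.179 and 1.43 CPM and at 0.0560, 0.417 and 1.91 CPM, against lowest values of 9.45 and 12.2 CPM in the 9 mice. Cd27, a costimulatory receptor, was at 1.29, 0.715 and 1.43 CPM against 12.1 to 53.7 CPM.

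Ccr7 and Il7r, the receptors for T zone chemokines and for the survival factor interleukin 7, had the same 3 low mice. Ccr7 (chr11:99144196-99155077) was at 1.51 and 0.417 CPM in AAV-GFP-2011 and AAV-GFP-2014, 7.74 CPM in AAV-GFP-2012 and 26.7 to 136 CPM in the 9 others, and Il7r at 3.14, 0.596 and 5.95 CPM against 17.3 to 119 CPM. Foxp3, the factor of regulatory T cells, was at 0.224, 0.298 and 1.19 CPM against 2.98 to 16.8 CPM. Ltb (chr17:35194439-35196320), the lymphotoxin chain that organises lymphoid tissue, is made by B and T cells alike and was at 0.841 and 0.894 CPM in the low pair, 14.6 CPM in AAV-GFP-2012 and 36.5 to 152 CPM in the others. A few receptors were sparse everywhere and rest on few reads. Cd28, the main costimulatory receptor, had 0 to 25 reads a mouse, the checkpoint receptor Ctla4 0 to 51 reads, and Icos, of follicular helper and other activated T cells, 0 to 60 reads.

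The cytotoxic genes Gzma and Nkg7 were less reduced. Gzma (chr13:113093825-113100981), a protease of cytotoxic T cells and natural killer (NK) cells, was at 2.35 CPM in AAV-GFP-2011, 2.32 CPM in AAV-GFP-2012 and 1.13 CPM in AAV-GFP-2014, against 2.999 to 6.34 CPM in the 9 other mice. These were 60.5%, 59.7% and 29.1% of its 12-mouse median, where the medians of the T cell list were 2.18%, 6.85% and 1.33%. Nkg7, a granule protein of the same cells, stood at 19.1%, 22.9% and 10.6% of its median. NK cells lack the CD3 chains, and genes of a 7-gene NK list summed to 8.97 and 5.78 CPM in the low pair, 10.5 CPM in AAV-GFP-2012 and 16.8 CPM or more in the 9 others. The most abundant of these were Prf1, which encodes perforin of NK and cytotoxic T cells, the transcription factor Eomes of the same cells, and Klrb1c, which encodes NK1.1. Prf1 was at 1.23 and 0.954 CPM in the low pair and 1.85 CPM in AAV-GFP-2012, below the 4.08 to 13.1 CPM of the 9 others, and Eomes at 1.12, 0.656 and 1.01 CPM against 2.07 to 12.2 CPM. Klrb1c was at 2.19, 1.31 and 1.97 CPM against 1.98 to 4.93 CPM, so that AAV-GFP-2011 lay within the range of the others. What share of the Gzma reads came from NK cells was not tested.

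**Figure D2:**
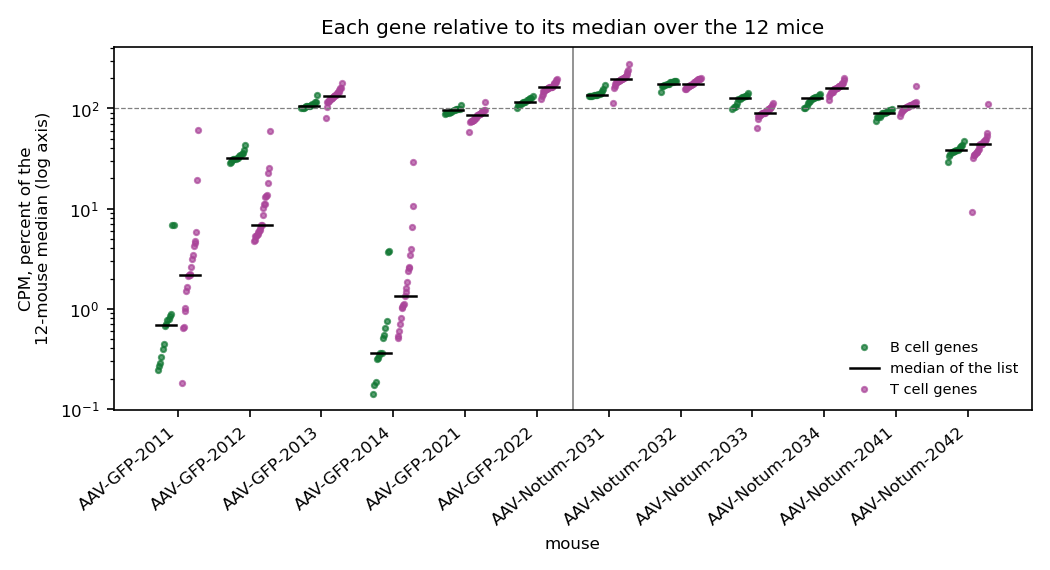
Points give the CPM of each gene as a percent of its median over the 12 mice (log axis), for 14 B cell genes and 23 T cell genes in each mouse, and bars give the median of the list. The 3 T cell genes with 0 reads in AAV-GFP-2011 and the 2 in AAV-GFP-2014 are not drawn. In AAV-GFP-2012 the bars stand at 31.7% for B cell and 6.85% for T cell genes, and in AAV-Notum-2042 at 38.1% and 44.2%.

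The separation of the low pair was then counted over genes. Both mice lay below each of the other 10 for 35 of the 37 genes, 14 of 14 B cell and 21 of 23 T cell genes, where 19.7% of all tested genes did so. The exceptions were Ctla4 and Gzma. The gap exceeded 2 log2 units for 19 of the 37, 14 B cell and 5 T cell genes, against 1.51% of all tested genes. AAV-GFP-2012, low for T cell genes, is one of these 10 mice. AAV-GFP-2011, AAV-GFP-2012 and AAV-GFP-2014 all lay below each of the other 9 mice for 33 of the 37, 11 of 14 B cell and 22 of 23 T cell genes, against 15.6% of all tested genes. The exceptions were Cr2, Bank1, Cxcr5 and Cd28. These mice were singled out by their level of these genes, so the counts are a description with no test.

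AAV-GFP-2012 and AAV-Notum-2042 had similar levels of B cell genes and different levels of T cell genes. Across the 14 B cell genes, the CPM in AAV-GFP-2012 was 0.599 (Cd79b) to 1.09 (Cxcr5) times that in AAV-Notum-2042, with a median of 0.886, and 3 genes were higher. Across the 23 T cell genes the median ratio was 0.184, and the ratios ran from 0.0949 (Cd3d) to 0.544 (Gzma) apart from Cd28, whose ratio of 2.76 rests on 3 reads against 1. Cd3e had 37 reads in AAV-GFP-2012 and 299 in AAV-Notum-2042, of 18053331 and 17516577 reads in all, while Cd79a had 610 and 620 reads. Summed over each list, AAV-GFP-2012 held 489 CPM of B cell and 76.5 CPM of T cell genes, and AAV-Notum-2042 held 570.1 and 339.6 CPM.

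The T cell genes least reduced in AAV-GFP-2012, after Gzma, Cd28 and Nkg7, were Ltb at 17.8%, Foxp3 at 13.8%, Zap70 at 13.2% and Cd4 at 13.0% of their 12-mouse medians. The most reduced were Icos at 4.73%, Cd8b1 at 4.89%, Cd27 at 5.27%, Cd3e at 5.37% and Cd3d at 5.39%. Icos rests on 1 read in that mouse. The B cell genes there lay in a narrow band, from 28.3% for Cd79b to 43.1% for Bank1.

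The balance of the lists varied among the other 9 mice by more than counting error. B cell genes made up 57.8% to 71.2% of the reads on the 37 genes there, against 86.5% in AAV-GFP-2012 (exact binomial 95% interval 85.8% to 87.2%, counting error only). They made up 50.4% in both AAV-GFP-2011 (47.0% to 53.8%) and AAV-GFP-2014 (45.8% to 55.1%), where most of them were Cd37 and Bank1 reads. The ratio of Cd79a to Cd3e in CPM, not corrected for length and so compared only between mice, was 16.5 in AAV-GFP-2012 and 1.80 to 3.65 in the 9 mice. In AAV-GFP-2011 and AAV-GFP-2014 it was 0.455 and 0.273, on 5 and 3 reads of Cd79a. The ratio of Cd4 to Cd8a was 2.37 in AAV-GFP-2012, above the 0.692 to 1.42 of the 9 mice, and 2.09 and 2.38 in the low pair, where Cd8a had 22 and 8 reads. Foxp3 was 14.8% of Cd4 in AAV-GFP-2012, within the 10.9% to 17.03% of the 9 mice. It was 8.70% in AAV-GFP-2011 and 26.3% in AAV-GFP-2014, outside that range on either side, on 4 and 5 reads of Foxp3.

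**Figure D3:**
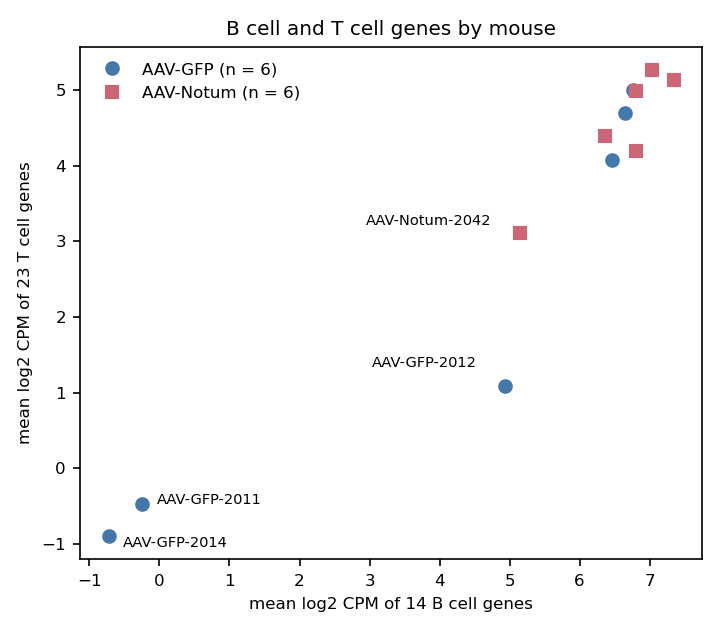
Each point is a mouse, placed by the mean log2 CPM of the 14 B cell genes (x axis) and of the 23 T cell genes (y axis), with circles for AAV-GFP (n = 6) and squares for AAV-Notum (n = 6). AAV-GFP-2012 lies at 4.94 and 1.09, below AAV-Notum-2042 at 5.14 and 3.11, and AAV-GFP-2011 and AAV-GFP-2014 lie below 0 on both axes.

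Across the 9 mice with both lists, levels of a B cell gene spanned 3.96-fold (Cd79b) to 5.44-fold (Fcrla) from the lowest to the highest mouse. T cell genes spanned 2.11-fold for Gzma to 8.01-fold for Ctla4, and 19.6-fold for Cd28, which had 1 read in the lowest mouse. The means of the lists went together. Pearson's r between the mean log2 CPM of B and T cell genes was 0.92 (Spearman's rho 0.83) over the 10 mice other than the low pair, 0.90 (rho 0.77) over the 9 mice and 0.93 (rho 0.77) over the 6 AAV-Notum mice. The mice share depth and scaling factors between the 2 means, and the values are a description. AAV-Notum-2032 was highest for B cell genes, with a mean log2 CPM of 7.34, and AAV-Notum-2031 for T cell genes, at 5.26. AAV-Notum-2042 was the lowest of the 9 for both, at 5.14 and 3.11.

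By correlation, given as a description, genes went more closely with their own list than with the other. Over the 10 mice, the median r of a B cell gene with the mean of the rest of its list was 0.99 and with the T cell mean 0.90, and all 14 were closer to their own. For T cell genes the medians were 0.99 and 0.90, and 22 of 23 were closer to their own, the exception being Cd28. Over the 9 mice, where AAV-GFP-2012 no longer separates the lists, the medians were 0.99 and 0.88 for B cell and 0.98 and 0.90 for T cell genes. All 14 B cell and 22 of 23 T cell genes were again closer to their own list, with Ltb now the exception (r = 0.96 with the T cell and 0.97 with the B cell mean). Gzma was the loosest, with r = 0.70 over 10 mice and 0.46 over 9 with its own list.

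The 10 genes outside all lists whose log2 CPM went most closely with the mean of the 37 over the 10 mice had r of 0.9963 to 0.9976. They were Limd2, Ubxn11, Nlrc3, Sept1, Gimap3, Slamf1, Izumo1r, Rpgrip1, Arhgap27os3 and Spn. Slamf1, a receptor of the SLAM family on lymphocytes, was at 0.112 and 0.0596 CPM in AAV-GFP-2011 and AAV-GFP-2014, 1.37 CPM in AAV-GFP-2012 and 3.17 to 13.2 CPM in the 9 others. Spn, the leukocyte sialoprotein CD43, was at 5.27, 2.80 and 8.16 CPM against 27.4 to 117.5 CPM.

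Compared per length of exon, the receptor chains led the members. The median over the 12 mice was 99.8 CPM per kilobase for Cd79b, 71.8 for Cd79a, 54.2 for Ltb, 52.0 for Cd37, 41.7 for Fcer2a and 41.0 for Cd22. Among T cell genes other than Ltb, Ccr7 was highest at 35.1 CPM per kilobase, followed by Lck at 26.5 and Cd8b1 at 23.8. Next came Cd8a at 16.1, Cd3d at 15.8, Nkg7 at 15.4 and Cd4 at 15.3. The medians of Cd8a, Cd3d, Nkg7 and Cd4 differ by less than the range over mice of any of them. The lowest were Themis at 1.01, Ctla4 at 0.395, Icos at 0.367 and Cd28 at 0.114 CPM per kilobase.

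Other genes of lymphoid tissue, taken from lists, were read beside the members. All 22 tested genes of the B cell receptor pathway had AAV-GFP-2011 and AAV-GFP-2014 below each of the other 10 mice, as had 22 of 24 genes of the T cell receptor pathway, 5 of 6 of high endothelial venules, 11 of 14 of lymph node stroma and follicular dendritic cells, 6 of 9 of dendritic cells and 6 of 8 of germinal centres, where 19.7% of all tested genes did so. Among lists of other cells, 4 of 5 mast cell, 4 of 7 NK cell, 3 of 7 plasma cell and 1 of 2 thymocyte genes did so. The counts were 1 of 11 for macrophages, 1 of 6 each for fibroblasts, endothelial cells and lymphatic endothelium, and 0 of 11 for adipocytes, 0 of 6 for skeletal muscle and 0 of 6 for hepatocytes.

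Some genes of the node's own framework were low in the pair and others were not. Glycam1, a mucin-like glycoprotein of high endothelial venules, was at 0.0560 and 0 CPM in AAV-GFP-2011 and AAV-GFP-2014, 4.29 CPM in AAV-GFP-2012, 16.2 CPM in AAV-Notum-2042 and 28.6 to 65.7 CPM in the remaining 8 mice. Cxcl13, the follicular chemokine, was at 5.10 and 3.93 CPM in the low pair, 35.0 CPM in AAV-GFP-2012 and 41.0 to 104 CPM in the 9 others. Cxcl13 was named here after its values were seen. Clu, which follicular dendritic cells express among other cells, was at 72.0 and 93.6 CPM in the low pair and 145 CPM in AAV-GFP-2012 against 178 to 505 CPM. Ltbr, the lymphotoxin beta receptor of stromal cells, was highest in the low pair, at 80.5 and 76.7 CPM, against 46.6 to 74.8 CPM in the other 10 mice. Ackr1, a chemokine-binding receptor of venules also named after its values were seen, was at 5.10 and 4.77 CPM in the pair, within the 4.62 to 10.4 CPM of the others. The dendritic cell genes Flt3 and Ccl22 were at 5.42 and 4.94 CPM in AAV-GFP-2012 against lowest values of 13.2 and 26.2 CPM in the 9 mice, and at 1.85 and 0.897 CPM in AAV-GFP-2011. Zbtb46, a transcription factor of dendritic cells and endothelium, was at 35.5 and 34.7 CPM in the low pair and 44.4 CPM in AAV-GFP-2012, against 31.1 to 42.6 CPM in the 9 mice. Ccl21a had 0 counted reads in all 12 mice. The read counter and its annotation are not given in the sources used here, so this 0 is not read as absence of its RNA.

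**Figure D4:**
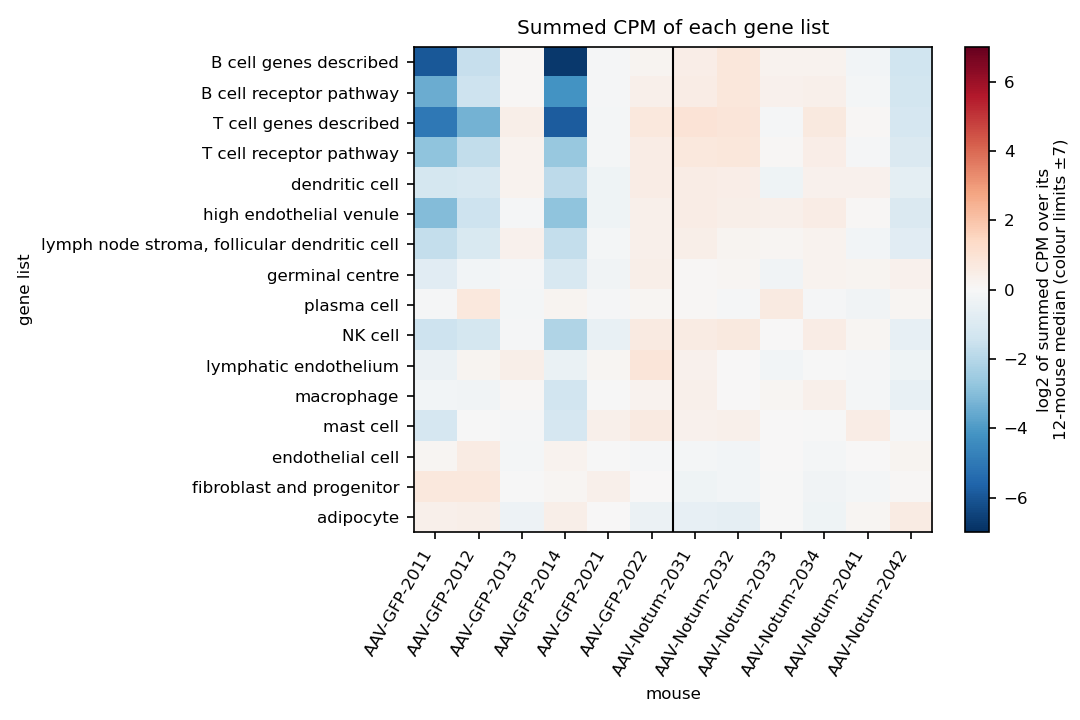
Colours give, for each gene list (rows) and mouse (columns; 6 AAV-GFP left of the line, 6 AAV-Notum right), the log2 of the list's summed CPM over its 12-mouse median. The B and T cell rows of AAV-GFP-2011 and AAV-GFP-2014 are the darkest blue of the 16 lists drawn, the rows of both receptor pathways, venules and stroma are blue in the same mice, and the adipocyte row stays between 65.7% and 151% of its median.

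Markers of other cells also varied between mice, some of them in the same direction. The mast cell list summed to 44.0% and 44.7% of its 12-mouse median in the low pair, against 93.3% to 157% in the other 10 mice. Summed CPM of the adipocyte list was 127% and 133% of its 12-mouse median in AAV-GFP-2011 and AAV-GFP-2014, 132% in AAV-GFP-2012, 151% in AAV-Notum-2042 and 65.7% to 109% in the remaining 8 mice. Macrophage genes summed to 86.1% in AAV-GFP-2011, 39.0% in AAV-GFP-2014 and 84.6% in AAV-GFP-2012, against 68.7% to 130% in the 9 other mice. Lymphatic endothelium stood at 75.5%, 73.5% and 112% in AAV-GFP-2011, AAV-GFP-2014 and AAV-GFP-2012, the first pair being the lowest of the 12 mice, and the endothelial list at 109%, 117% and 147% in that order. Skeletal muscle genes ranged from 14.5% in AAV-Notum-2034 to 7498% in AAV-Notum-2042, with 1068% in AAV-GFP-2011, 1615% in AAV-GFP-2012 and 117% in AAV-GFP-2014. Hepatocyte genes ran from 20.1% in AAV-Notum-2031 to 4814% in AAV-GFP-2013, with AAV-GFP-2011 at 45.8%, AAV-GFP-2012 at 122% and AAV-GFP-2014 at 1246%. The fibroblast list was highest in AAV-GFP-2012 and AAV-GFP-2011, both at 168%, while AAV-GFP-2014 stood at 109%, below AAV-GFP-2021 at 127%. The thymocyte list summed to 165% of its median in both mice of the low pair, the highest of the 12, against 70.3% to 145% in the others. Nearly all of that sum was Cd1d1, a lipid antigen presenting molecule made by many cell types, at 307 CPM in both mice of the low pair and 128 to 270.0 CPM in the other 10. Rag1 and Ptcra, of developing lymphocytes, were at 0 to 1.23 and 0 to 0.0663 CPM over the 12 mice. The part that tissue make-up has in the levels of the 37 genes was not tested.

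The comparison of the groups asks whether vector-driven Notum in the liver goes with a different amount of these genes in iWAT. All 37 genes had a higher mean in AAV-Notum, none passed the test, and the difference shrank once the low AAV-GFP mice were left out. The mean log2 CPM of the B cell genes averaged 3.97 ± 3.52 (SD, n = 6) over the AAV-GFP mice, against 6.58 ± 0.77 (SD, n = 6) over the AAV-Notum mice, and that of the T cell genes 2.25 ± 2.66 and 4.51 ± 0.81. The groups overlapped on both lists, as AAV-GFP-2013, AAV-GFP-2021 and AAV-GFP-2022 lay among the AAV-Notum mice.

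The edgeR quasi-likelihood test called 0 of the 37 genes higher and 0 lower at an adjusted p of 0.05, where it called 0% of all 15585 genes higher and 0.0513% (8 genes) lower. The counts over all genes were not stable. They were 79 higher and 357 lower of 31900 genes with DESeq2, which also used its own gene filter and scaling, and 12 higher and 146 lower of 15707 without AAV-GFP-2022, with 0 of the 37 called in either. At an unadjusted p under 0.05 the main test called 0 of the 37 higher, against 4.64% of all genes, and 0 lower, against 9.54%. At the same threshold limma-voom called 23 of the 37 higher (3 B cell and 20 T cell genes), against 9.38% of all genes, and DESeq2 called 1, against 3.34%. The log2 fold change was above 0 for 37 of 37, against 51.2% of all genes, and above 0.5 for 37 of 37, against 12.4%. The 37 counts are not independent of each other, since the genes went together across the same 12 mice. The median log2 fold change was 0.97 for B cell and 0.96 for T cell genes and 0.0077 over all genes, with standard errors of 0.33 to 1.02 and adjusted p from 0.375 to 0.679 over the 37. The size of the difference depended on the method. The medians were 2.76 and 2.58 with limma-voom, which works on log values as do the group means above, and 0.63 and 0.72 in edgeR with RNA integrity in the model.

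Cd79b had 1.07, 90.2 and 166 CPM as its lowest, median and highest value in AAV-GFP, and 67.5, 189.7 and 267 CPM in AAV-Notum. The ranges overlapped, and the log2 fold change was 1.09 ± 0.94 (SE) with an edgeR adjusted p of 0.538. Cd79a had 0.179, 65.2 and 119.5 CPM in AAV-GFP and 40.1, 137 and 178 CPM in AAV-Notum, a log2 fold change of 0.97 ± 1.01 (adjusted p = 0.604). Ms4a1 had the smallest difference of the B cell list, 0.76 ± 1.01 (adjusted p = 0.679), with medians of 80.6 and 115 CPM. In AAV-Notum 4 of 6 mice exceeded every AAV-GFP mouse for Cd79a and Cd79b, and 2 of 6 did for Ms4a1 and Cr2.

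Among T cell genes, Cd3e had 0.616, 19.1 and 66.4 CPM as its lowest, median and highest value in AAV-GFP and 19.4, 54.7 and 76.3 CPM in AAV-Notum. Its log2 fold change was 0.93 ± 0.96 (edgeR adjusted p = 0.601), and 2 of 6 AAV-Notum mice exceeded every AAV-GFP mouse. Cd4 had medians of 32.5 and 85.3 CPM and a log2 fold change of 1.13 ± 0.85 (adjusted p = 0.499). Icos had the largest fold change of the 37, 1.28 ± 0.86 (adjusted p = 0.472), on 0 to 36 reads per control mouse and 7 to 60 per AAV-Notum mouse. Foxp3, with medians of 3.85 and 10.8 CPM, had 0.93 ± 0.83 (adjusted p = 0.553). Il7r was at 0.69 ± 0.91 (adjusted p = 0.677) and Ltb at 1.07 ± 0.92 (adjusted p = 0.543).

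Gzma had the lowest p of the 37. It was at 1.13, 2.68 and 6.34 CPM in AAV-GFP and 3.84, 4.35 and 6.34 CPM in AAV-Notum. The highest mice of the groups were level, and the AAV-GFP median was exceeded in all 6 mice given Notum. The log2 fold change was 0.66 ± 0.33 (unadjusted p = 0.0667, edgeR adjusted p = 0.375). Without AAV-GFP-2022, the AAV-GFP mouse with the highest Gzma, it was 1.01 (unadjusted p = 0.00217, edgeR adjusted p = 0.0752). Leaving this mouse out moved 12 of the 37 by more than 1.5 times, all of them T cell genes and all upward, Cd3e to 1.41, Foxp3 to 1.55, Il7r to 1.13 and Icos to 1.95 among them. Leaving out AAV-GFP-2011 or AAV-GFP-2014 moved Cr2, Ms4a1 and Il7r downward by more than 1.5 times, and leaving out AAV-Notum-2031 moved Il7r to 0.40. In the two-sided exact permutation test of mean log2 CPM over the 924 ways to assign 6 of 12 mice, Gzma gave p = 0.0411 and the other members 0.0649 to 0.184, where 0.00216 is the smallest value possible. These p are not adjusted for the 37 genes.

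Left without AAV-GFP-2011 and AAV-GFP-2014, the log2 fold changes of the 37 ran from 0.13 (Il7r) to 0.70 (Icos), with a median of 0.39 for either list. Then 6 of 37, Cd79b and 5 T cell genes, were above 0.5, against 4.16% of the 15994 genes tested in those 10 mice, and the lowest adjusted p was 0.862. Cd79a was then at 0.39 ± 0.41, Cd3e at 0.36 ± 0.67 and Gzma at 0.39 ± 0.29. Without AAV-GFP-2012 as well, a choice made after its T cell reads were seen, the medians were 0.12 for B cell and 0.04 for T cell genes, and 29 of 37 were above 0, against 50.3% of the 16241 genes tested in those 9 mice. The range was then -0.24 (Il7r) to 0.31 (Icos), with 3 AAV-GFP mice left. Mice were removed here by their measured level, so these values show what the difference rests on and are no separate test. The 95% intervals of the full comparison reached from as low as -1.43 to as high as 3.31 log2 units over the 37 genes.

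**Figure D5:**
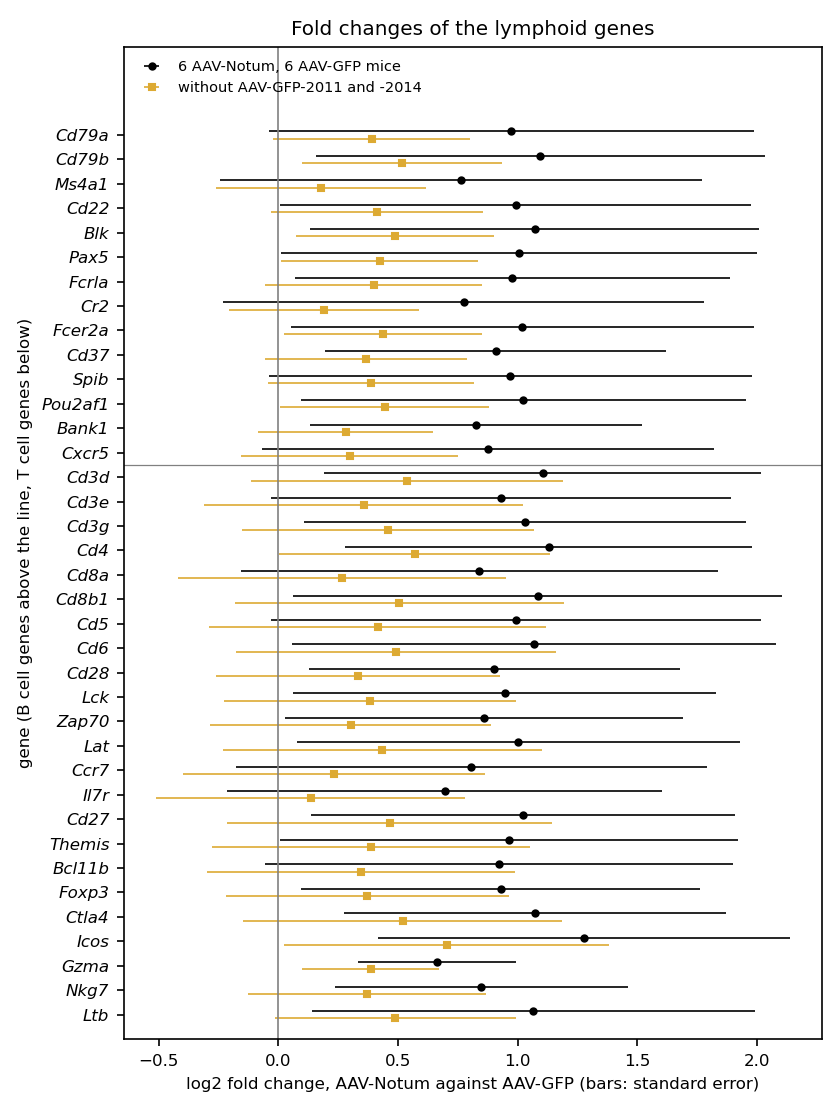
Points give the log2 fold change, AAV-Notum against AAV-GFP, of each gene (rows; B cell genes above the line, T cell genes below) and bars its standard error, for all 12 mice (circles) and without AAV-GFP-2011 and AAV-GFP-2014 (squares). All circles lie between 0.66 and 1.28 and all squares between 0.13 and 0.70.

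Pathway genes outside the members had group differences of a like size. Of the B cell receptor pathway, 22 of 22 tested genes had a log2 fold change above 0 with a median of 0.86, and of the T cell receptor pathway 24 of 24 with a median of 0.91, against 51.2% of all genes. The medians were 0.79 for high endothelial venules (5 of 6 above 0), 0.55 for stroma and follicular dendritic cells (13 of 14), 0.65 for germinal centres (7 of 8), 0.72 for dendritic cells (7 of 9) and 0.56 for NK cells (7 of 7). They were -0.10 for macrophages (4 of 11), -0.27 for adipocytes (2 of 11) and 0.02 for plasma cells (4 of 7). The medians furthest from 0 were those of hepatocyte genes at -2.79 (0 of 6) and skeletal muscle genes at 1.39 (6 of 6), and fibroblast genes were at -0.44 (1 of 6). No gene of these lists passed an edgeR adjusted p of 0.05 in either direction.

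Several members share exonic bases with another annotated gene, and the strand setting of the read counting is not given in the sources used here. Cd22, Pax5, Cd37, Cxcr5, Cd3e, Themis and Foxp3 overlap a gene on the opposite strand, and reads of these pairs cannot be told apart without strand. Lck, Lat and Cd27 overlap a microRNA gene and Foxp3 overlaps Flicr on the same strand, where strand would not separate the reads. The deposited normalized table, brought back to reads, differed from the count table by more than 10% in the total of 3 members, by -12.3% for Cd22, -15.2% for Cd3e and 10.9% for Cd27.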

How the data were processed

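RNA was isolated from whole iWAT of 12 mice, and libraries were made with Illumina TruSeq kits. Per the labels, the authors used FastQC, STAR 2.3.1 and DESeq2 on mm10; the read counter and annotation are not given in the sources used here. The authors deposited a table of raw counts, which was analysed, and a table of normalized counts, log2 scaled by the authors, of which 100% of values came out as whole reads once the scaling was undone; it was used as an alternative only. All columns were matched to samples by title.

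Genes were kept by filterByExpr at a minimum count of 10 and a total of at least 15, scaled by TMM and tested with edgeR 4.0.16 (R 4.3.3) quasi-likelihood, AAV-Notum against AAV-GFP, with no covariate and Benjamini-Hochberg adjustment over 15585 genes. Replicates are separate mice. Single values were tested by exact permutation. DESeq2 1.42.0, limma-voom (limma 3.58.1), other filters and scalings, RNA integrity as a covariate and leaving out mice were alternatives. Coordinates are GRCm38 (GENCODE vM21), and lengths are unions of exons. The fits were run on simulated counts drawn around a common mean for each gene and group. That check does not cover genes nearly absent from some mice of a group.

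Genes named are the 37 members, Notum, for each list any gene past the adjusted p and the 3 with the highest mean, and the 10 closest in correlation, apart from Cxcl13, Ackr1, Rag1, Ptcra and Ccl21a, named after their values were seen. Sept1 is the annotation's name for a gene whose symbol the count table holds damaged. Members and lists were chosen with earlier results of these data known.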

Additional observations from a re-analysis of the deposited data

Results flagged for a closer look

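Cd28, the costimulatory receptor of T cells, stood apart in 1 mouse of 1 group. In AAV-Notum-2042 its log2 CPM was -2.48, on 1 read, against -0.49 to 0.47 in the other 5 AAV-Notum mice, and the gap took 0.674 of the range of the group, above the critical value of 0.625 for 6 samples. Of the 78 groups of values checked in this way, chance alone would mark about 3.9.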

How the results depend on the processing

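No member passed an adjusted p of 0.05 in the main test or in any of the 23 alternatives, where the lowest value was 0.0752 (Gzma without AAV-GFP-2022). The number of members higher at an unadjusted p under 0.05 was 0 in the main test, 1 with DESeq2 with or without independent filtering, 23 with limma-voom (where 9.38% of all genes were), and 0 to 2 when each mouse was left out in turn. All 37 had fold changes above 0 on the log2 scale in the alternatives that tested them all, other than the removal of 3 mice below. Requiring 10 counts in every mouse left 14 of 37 to test, 14 of them above 0. Without AAV-GFP-2011, AAV-GFP-2012 and AAV-GFP-2014, an alternative added after seeing the data, Ms4a1 (-0.12), Cr2 (-0.069), Cd3e (-0.038), Cd8a (-0.13), Zap70 (-0.070), Ccr7 (-0.14), Il7r (-0.24) and Bcl11b (-0.043) turned below 0, with 3 AAV-GFP mice left. With limma-voom the medians were 2.76 for B cell and 2.58 for T cell genes, and with RNA integrity as a covariate 0.63 and 0.72; leaving out single mice gave 0.71 to 1.28 and 0.70 to 1.44. Of the other listed genes, the number called lower was 0 in the main test, 2 with DESeq2, 1 without independent filtering, 1 with 10 counts in every mouse and 0 to 1 when single mice were left out, and the number called higher was 0 to 1 in the last case. The cause was not tested. Scaling by plain library size moved the mean of a list in a mouse by at most 0.18 log2 units. Low reads limit Cd28, Ctla4 and Icos in every mouse. No paired analysis was possible because the groups share no replicate numbers.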
